A study of Mus musculus with 16 samples.

Results

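Oxidative phosphorylation was followed here through every row of a gene count table that stands for a subunit, assembly factor or pseudogene of the 5 complexes, in fat of lean and obese mice. The members are the 13 protein rows of the mitochondrial chromosome and all rows whose RefSeq accession belongs to a mouse gene symbol starting with Nduf (followed by a, b, c, s or v), Uqcr, Cox4 to Cox8 or Atp5, or equal to Sdha, Sdhb, Sdhc, Sdhd or Cyc1. This choice used names only and took 217 of the 130343 rows, namely 13 mitochondrial and 204 nuclear ones. A row passed the filter on low counts when its CPM (its count scaled to the total of its library) was above 1 in at least 3 of the 16 libraries. All 13 mitochondrial and 85 of the 204 nuclear rows passed, which is 98 of the 13288 rows tested.

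The 5 complexes of the inner mitochondrial membrane make most of the ATP of a resting cell. Complex I (NADH dehydrogenase) and complex II (succinate dehydrogenase) feed electrons into coenzyme Q, complex III hands them to cytochrome c, complex IV passes them to oxygen, and complex V (ATP synthase) uses the proton gradient built on the way. The mitochondrial genome encodes core subunits of complexes I, III, IV and V and none of complex II, while all other subunits are transcribed in the nucleus and imported, so that the pair of genomes must both supply parts of the same machines.

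RNA was sequenced from poly(A)-selected, strand-directional libraries of bulk fat of 8 male wild-type C57BL/6J mice, an inbred laboratory strain. No transgene or engineered allele is named for any group. Lean mice (n = 4) ate a normal laboratory diet, and obese mice (n = 4) ate a high-fat diet with 42% of calories from fat and 0.2% cholesterol, from 10 weeks of age and for 12 to 14 months. Each mouse gave inguinal subcutaneous adipose tissue (SAT, left and right depots combined) and mesenteric visceral adipose tissue (VAT), with visible vessels cut away, so that the 4 groups are lean SAT, obese SAT, lean VAT and obese VAT. Obesity here was induced by diet in male mice of 1 strain, and diet and body weight cannot be told apart. Library totals ran from 4604460 to 16614407 counts, except 1256082 in VAT of lean mouse 1 and 2247737 in VAT of obese mouse 1. Adipocyte markers were detected in every library, with a summed level between 15521 and 58206 CPM, whereas mesothelial markers, found on the gut's surface lining, summed to at most 1.41 CPM in SAT and to between 242 and 593 CPM in VAT.

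Levels below are CPM rescaled by the trimmed mean of M-values (TMM), which corrects a library's total for a few very abundant genes, and they are compared between genes only per kilobase. Differences are log2 fold changes with a standard error (SE), and a row is called at an adjusted p below 0.05 in the edgeR quasi-likelihood test, with Benjamini-Hochberg adjustment over all 13288 rows.

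The 13 mitochondrial protein rows fell into clearly separate levels. Per kilobase of coding sequence, the median over the 16 libraries was 31673 TMM-scaled CPM for COX1 (catalytic core of complex IV), 22367 for CYTB (core of complex III), 17508 for ND1, 13124 for ND2, 9441 for ND5, 7997 for ND4 and 7540 for ND6, all core subunits of complex I. The medians of the other 6 rows lay between 2.72 for ATP8 and 119 for ND3, with COX2, COX3, ATP6 and ND4L in between. Those 6 rows together held 0.127% of the counts on mitochondrial protein rows, although COX2 and COX3 encode core subunits of the same enzyme as COX1.

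The genome carries a second copy of the stretch in which these 6 genes lie. On GRCm39 the mitochondrial sequence from 6390 to 11042 matched chr1:24650616-24655269, on the minus strand, with 99.936% identity over 4654 aligned positions. Cut into windows of 75 bases, the shortest read kept by the study, the coding sequences of COX2 (7013 to 7693), ATP8 (7766 to 7966), ATP6 (7927 to 8604), COX3 (8607 to 9390) and ND4L (9877 to 10170) had 100% of their windows also in a nuclear chromosome, and ND3 (9459 to 9803) had 98.9%. For ND4 (10167 to 11544) the share was 61.5% and for COX1 (5328 to 6869) 39.7%, both of which reach past the edges of the copied stretch. It was 5.72% for ND2 (3914 to 4948) and 1.66% for ND5 (11742 to 13562), and no window of ND1 (2751 to 3704), ND6 (13555 to 14070, minus strand) or CYTB (14145 to 15288) recurred. The first 60 coding bases of COX2 and their counterpart, chr1:24654587-24654646 read on the minus strand, are shown because a read from one cannot be placed apart from the other.
COX2, mitochondrial: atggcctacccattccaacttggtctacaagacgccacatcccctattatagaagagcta
COX2, chromosome 1: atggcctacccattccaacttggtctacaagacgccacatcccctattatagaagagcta

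ND3 is the row with the highest median of the 6, and its start holds 1 of the few differences between the copies. The capital marks the base that differs (T9461C, with the mitochondrial base first and the position counted on the mitochondrial chromosome), in the mitochondrial bases 9436 to 9486 and in chr1:24652173-24652223 written in the mitochondrial direction.
ND3, mitochondrial: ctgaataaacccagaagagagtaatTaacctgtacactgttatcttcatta
ND3, chromosome 1: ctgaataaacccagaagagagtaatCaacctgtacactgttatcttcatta

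How the study's counting treated reads with several equally good positions is not stated in the sources used here, and its part in the low values was not tested. The 7 rows with at least 442 windows of their own (627501 to 8362977 counts each) are therefore described apart from the 6 repeated rows (170 to 12929 counts each), as the plot of level against repeated windows shows. ND6 is the 1 row on the minus strand and overlaps RNA of the opposite strand, so its level also depends on strand having been used in counting, which is not stated.

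**Figure D1:**
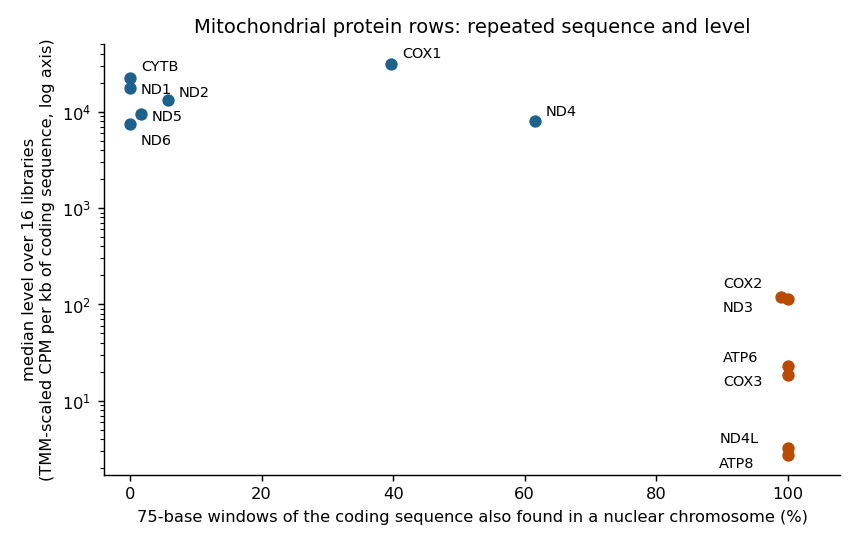
Each point is 1 of the 13 mitochondrial protein rows, with the share of its 75-base windows that also occur in a nuclear chromosome (%) on the x axis and its median TMM-scaled CPM per kilobase over 16 libraries on a log y axis. The 7 rows in blue lie between 7540 and 31673, and the 6 rows in orange, at 98.9 or 100% repeated windows, lie between 2.72 and 119.

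Among the nuclear members, the number of rows per gene went with the number of counts. The table has 1 row per RefSeq transcript, and 53 of the 97 nuclear member genes (leaving out 3 pseudogene symbols) had 1 row, while 44 had several. The 1-row genes held 92.4% of the counts of these genes, with a median of 15039 counts per gene over all libraries, against 562.5 for genes with several rows. Of the 1-row genes 47 passed the filter, and of the genes with several rows 31 had a row that passed. Central subunits stood at few counts when they had several rows, such as Ndufs1 with 146 counts, Ndufv2 with 44 and Ndufs7 with 55 (all core subunits of complex I), Cyc1 (cytochrome c1) with 172, Sdhc with 70 and Cox5a with 14. Partner subunits with 1 row stood far higher, such as Atp5b with 470265 counts, Atp5a1 with 269528 and Sdha with 223127. Cox6b1 (36824 counts) and Ndufb8 (22260 counts) were the genes with several rows that kept most counts. Low values of genes with several rows were therefore not read as low expression, and whether reads shared between transcripts were left out of counting was not tested. Ndufc1, Cox7b2, Cox8c and Atp5l had 1 row each and were listed at 0 in all libraries.

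The mitochondrial rows took 13.6, 14.7, 18.7 and 17.5% of all counts in lean SAT and 9.63, 11.2, 11.2 and 14.1% in obese SAT. In lean VAT they took 14.9, 17.2, 18.6 and 18.6%, and in obese VAT 9.81, 11.2, 13.7 and 13.5%. The share was thus lower in obese than in lean mice on average in both depots, at 11.5% ± 1.87 against 16.1% ± 2.37 in SAT and 12.1% ± 1.87 against 17.3% ± 1.72 in VAT (SD, n = 4), and only in SAT did the groups overlap. After TMM scaling the summed mitochondrial level averaged 163833 CPM in lean and 136378 CPM in obese SAT, and 160218 CPM in lean and 112877 CPM in obese VAT. On that scale the groups overlapped in VAT too, at 120276 to 183118 CPM in lean and 84544 to 136113 CPM in obese mice. No test was run on these values.

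The 204 nuclear rows moved within much tighter limits. Their share of all counts was 1.47, 1.497, 1.57 and 1.55% in lean SAT, 1.07, 1.14, 1.09 and 1.13% in obese SAT, 1.31, 1.41, 1.41 and 1.44% in lean VAT, and 1.06, 1.16, 1.19 and 1.21% in obese VAT. Obese libraries lay below lean libraries in both depots with no overlap. Beside these shares stood Scd1, the desaturase of fatty acid synthesis and the most abundant nuclear row, which took 8.08% ± 4.57 of counts in lean SAT and 24.4% ± 0.905 in obese SAT, and 7.61% ± 1.79 and 16.8% ± 2.93 in lean and obese VAT (SD, n = 4). A share of counts falls when another row takes more, and after TMM scaling the summed nuclear level was 15433 CPM in lean and 13059 CPM in obese SAT, and 12844 and 10777 CPM in lean and obese VAT. On that scale the ranges overlapped in both depots, at 14407 to 16711 CPM in lean and 12160 to 14416 CPM in obese SAT, and at 10564 to 13899 CPM in lean and 9127 to 11820 CPM in obese VAT.

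The ratio of mitochondrial to nuclear member counts, which does not depend on the library total, was 10.6 ± 1.22 in lean SAT, 10.4 ± 1.47 in obese SAT, 12.4 ± 0.799 in lean VAT and 10.4 ± 1.12 in obese VAT (SD, n = 4). In SAT the ranges of both diets overlapped, from 9.29 to 11.9 and from 9.02 to 12.4, and in VAT they met only at the edge, from 11.4 to 13.2 and from 9.26 to 11.5. In lean mice the ratio was higher in VAT than in SAT of the same mouse in 4 of 4 mice, by 2.09, 2.37, 1.25 and 1.64, and in obese mice in 2 of 4. For complex I alone the ratio was higher in VAT in 4 of 4 lean mice and lower in VAT in 4 of 4 obese mice. These are ratios of counts and not of molecules, since gene lengths differ.

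**Figure D2:**
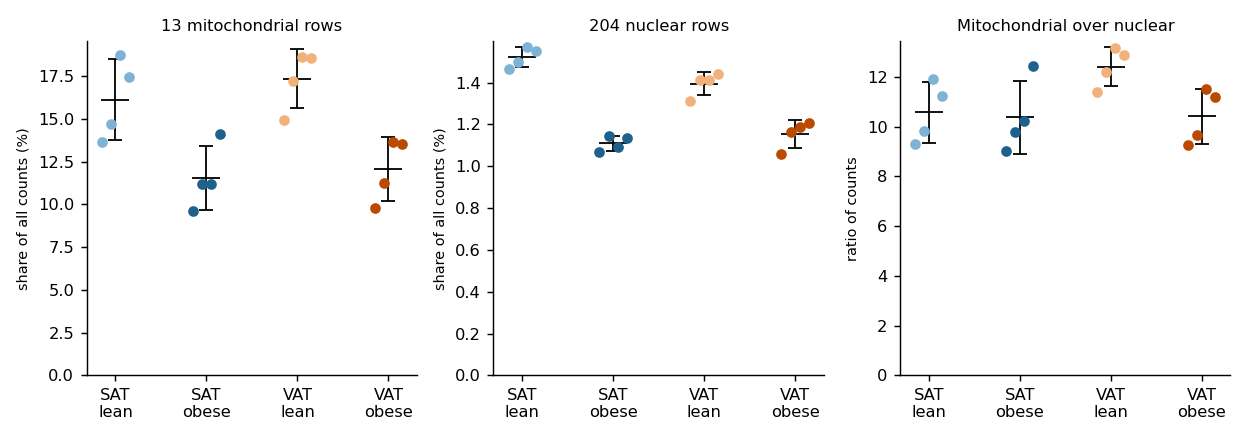
Share of all counts (%) on the 13 mitochondrial rows (left) and the 204 nuclear member rows (middle), and the ratio of the counts (right), per library (points) with mean and SD (bars) for n = 4 mice in each of 4 groups. The nuclear share of obese libraries, 1.06 to 1.21%, lies below that of lean libraries, 1.31 to 1.57%, while the ratio overlaps between diets in both depots.

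The first comparison asked how SAT of obese mice differed from SAT of lean mice. Ndufb8, Ndufb10 and Ndufb9, all accessory subunits of the membrane arm of complex I, were lower in obese SAT. Of the 98 tested members 3 were lower and 0 higher, beside 4.85% lower and 6.2% higher among all rows tested, and 11.0% called in all. At an unadjusted p below 0.05 the edgeR test had 19 members lower and 3 higher, beside 11.5% and 13.6% of all rows, and DESeq2 called 8 members, all lower, beside 12.4% of all rows in either direction. No mitochondrial row was called by either tool, with 2 rows lower and 1 higher at an unadjusted p below 0.05 in edgeR. None of the 3 called rows exceeded a log2 fold change of 1.5, the limit used in the study, beside 2.75% of all rows.

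Ndufb8 (accession NM_026061, chromosome 19, the row of this gene with most of its counts) stood at 145, 142, 169 and 138 TMM-scaled CPM in lean SAT and at 89.5, 88.0, 94.9 and 115 in obese SAT. Every obese library lay below every lean one, and the log2 fold change was -0.62 (SE 0.13, adjusted p = 0.00282). The second tested row of Ndufb8 (NM_001347447) had -0.28 (SE 0.17, adjusted p = 0.30) and was not called. Ndufb10 (chromosome 17) stood at 149, 135, 144 and 136 against 89.8, 106, 92.5 and 111, again with no overlap, a log2 fold change of -0.50 (SE 0.11, adjusted p = 0.00637). Ndufb9 (chromosome 15) stood at 88.8, 99.5, 104 and 97.2 against 68.9, 80.3, 64.9 and 79.9. Its groups did not overlap either, and its log2 fold change was -0.41 (SE 0.12, adjusted p = 0.0247). The call of Ndufb9 was lost on leaving out lean mouse 2, lean mouse 3, obese mouse 1 or obese mouse 3, with adjusted p between 0.058 and 0.098. With no filter on low counts, the calls of Ndufb10 (adjusted p = 0.069) and Ndufb9 (adjusted p = 0.27) were both lost. The number of members called rose to 12 without lean mouse 1 and to 8 without obese mouse 4, and fell to 2 without lean mouse 2, lean mouse 3 or obese mouse 3, beside 7.21 to 11.5% of all rows called over the 8 fits that leave out 1 mouse.

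The median log2 fold change of the 98 members in SAT was -0.24, with 83 below 0 and 15 above, beside 0.01 over all rows tested. The highest values were 1.86 for the repeated row ND4L (adjusted p = 0.077) and 1.84 for Cox6a2 (adjusted p = 0.076), neither of them called. By complex, the median of nuclear rows was -0.27 for complex I (35 rows), -0.32 for complex II (3 rows), -0.24 for complex III (9 rows) and -0.19 for complexes IV (16 rows) and V (17 rows). The 7 mitochondrial rows with their own windows had a median of -0.26, all 7 below 0 and none called, from -0.15 for ND2 (adjusted p = 0.63) to -0.43 for ND4 (adjusted p = 0.13). ND4 was called in 3 of 17 alternative fits, among them the fit without obese mouse 4, in which 2 mitochondrial rows were called. All 4 obese libraries lay below all 4 lean ones for 13 members and above for 0, beside 7.64% and 9.61% of all rows. Besides the 3 called rows these were Ndufa1, Ndufa10, Ndufs3, Ndufv1, Ndufaf8, Sdhd, Cox6c, Atp5a1, Atp5g2 and Atp5j2, and 0 of the 13 were mitochondrial.

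Fat is a mixture of cells, and in bulk RNA fewer cells of a type and less RNA per cell cannot be told apart. In SAT, adipocyte markers (8 genes, such as Adipoq, Lep and Fabp4) had 0 of 16 rows called between diets by edgeR and 1 lower at an unadjusted p below 0.05, with summed levels of 41302 to 58206 CPM in lean and 37539 to 52495 CPM in obese mice. Macrophage markers were higher in obese SAT in 5 of 7 rows, with a median log2 fold change of 0.71 and summed levels of 1251 to 1726 CPM against 1959 to 2902 CPM. Lipid-associated macrophage markers were higher in 2 of 7 rows and lower in 1, and B cell markers had 0 of 5 rows called. Skeletal muscle markers had 1 tested row, Tnnc2, which was lower in obese SAT (-2.55, SE 0.35, adjusted p = 4.5e-05). The muscle markers summed to 5.32 to 9.58 CPM in lean and 2.85 to 4.15 CPM in obese SAT, with no overlap. Exocrine pancreas markers were higher in 1 of 3 rows, with summed levels of 71.3 to 144 CPM in lean and 164 to 209 CPM in obese SAT. The part of these cell types in the member values was not tested.

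In VAT, the comparison of diets gave a longer list that included mitochondrial rows. Of the 98 members 10 were lower in obese VAT and 0 higher, beside 4.09% lower and 6.82% higher among all rows tested (10.9% called in all). They were ND4 and ND5 of complex I, CYTB of complex III and the repeated row COX3 among mitochondrial rows, and Sdha, Uqcrc2, Atp5b, Ndufv1, Ndufb9 and Cox7a2l among nuclear ones. At an unadjusted p below 0.05 edgeR had 23 members lower and 3 higher, beside 10.1% and 13.5% of all rows. DESeq2 called 12, all lower and including 9 of these 10, beside 11.9% of all rows in either direction. The call of COX3 was lost in DESeq2 (adjusted p = 0.10), and those of Ndufv1 and Ndufb9 with no filter on low counts (adjusted p = 0.16 and 0.197). None of the 10 exceeded a log2 fold change of 1.5, beside 3.17% of all rows.

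CYTB stood at 24385, 33251, 37322 and 34358 TMM-scaled CPM in lean VAT and at 15292, 20763, 26791 and 22855 in obese VAT. The groups overlapped only through lean mouse 1, and the log2 fold change was -0.59 (SE 0.17, adjusted p = 0.029). ND5, a proton-pumping subunit, stood at 15598, 22193, 24760 and 21693 against 11088, 12192, 16643 and 14474, with a log2 fold change of -0.63 (SE 0.18, adjusted p = 0.022). For ND4, another proton-pumping subunit, the values were 10062, 13466, 15299 and 14839 against 6211, 8321, 11138 and 9775. Here too lean mouse 1 alone fell inside the obese range, and the log2 fold change was -0.60 (SE 0.18, adjusted p = 0.0321). The other 4 rows with their own windows had log2 fold changes of -0.48 for COX1 (adjusted p = 0.081), -0.50 for ND6 (adjusted p = 0.096), -0.37 for ND1 (adjusted p = 0.16) and -0.31 for ND2 (adjusted p = 0.26). COX3, at 10.2, 49.2, 23.1 and 23.97 CPM against 5.75, 12.6, 13.8 and 12.7, had a log2 fold change of -1.27 (SE 0.41, adjusted p = 0.0476) that rests on repeated sequence. Lean and obese mice are different animals, and the study states no pairing between them. A fit with the replicate number as a block is given because of the labels and of correlations in these same data. With that block 15 members were called in VAT, 7 of them mitochondrial, beside 12.2% of all rows in that fit. COX1 (-0.49, adjusted p = 0.0022), ND6 (-0.50, adjusted p = 0.015) and ND1 (-0.37, adjusted p = 0.030) were called in that fit, and ND2 was not (adjusted p = 0.064).

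The nuclear calls numbered 6. Sdha, the flavoprotein that oxidises succinate in complex II (chromosome 13), stood at 1143, 1656, 1723 and 1563 in lean VAT and at 879, 1179, 1170 and 1047 in obese VAT, with a log2 fold change of -0.51 (SE 0.14, adjusted p = 0.0175). Uqcrc2, a core protein of complex III (chromosome 7), stood at 373, 527, 532 and 537 against 288, 379, 378 and 360, a log2 fold change of -0.49 (SE 0.13, adjusted p = 0.019). In both, lean mouse 1 was the lowest lean library and the other 3 lay above all obese ones. Atp5b, the catalytic beta subunit of ATP synthase (chromosome 10), stood at 2190, 3127, 3177 and 3228 against 1720, 2333, 2326 and 2122, a log2 fold change of -0.46 (SE 0.13, adjusted p = 0.0227).

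Ndufv1, the subunit of complex I that takes electrons from NADH (chromosome 19), stood at 211, 213, 265 and 235 in lean VAT against 181, 175, 200 and 171 in obese VAT, with a log2 fold change of -0.35 (SE 0.11, adjusted p = 0.0362). Ndufb9 stood at 77.5, 67.8, 80.3 and 83.0 against 57.9, 58.6, 66.4 and 54.3, a log2 fold change of -0.38 (SE 0.12, adjusted p = 0.0413). These were the 2 members whose obese VAT libraries all lay below the lean ones, beside 4.99% of all rows, and Cox6a2 and Atp5g1 were the 2 with all obese libraries above, beside 8.36%. Cox7a2l was called on a row with 2 to 60 counts per library (NM_001159529), at 1.92, 3.59, 4.18 and 4.198 CPM against 0.767, 2.06, 1.53 and 1.71, a log2 fold change of -1.17 (SE 0.34, adjusted p = 0.0295). No call in VAT held without lean mouse 3 (0 members called, beside 7.54% of all rows). The number was 2 without lean mouse 2, 4 without obese mouse 2, 5 without lean mouse 4 or obese mouse 4, and 6 without obese mouse 1. Without lean mouse 1, whose VAT library was the shallowest, it was 20, beside 12.7% of all rows. Over the 8 such fits the share of all rows called ran from 6.4% without obese mouse 4 to that 12.7%.

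Nuclear rows of the same complexes went both ways in VAT, with 40 above 0 and 45 below, from -1.32 to 2.66. For the 7 mitochondrial rows with their own windows the median log2 fold change in VAT was -0.50, with all 7 below 0, while the 85 nuclear rows had a median of -0.01, beside 0.02 over all rows. Nuclear medians were 0.00 for complex I, -0.51 for complex II, -0.07 for complex III, 0.02 for complex IV and 0.05 for complex V, as the plot of diet differences by complex shows. Adipocyte markers were lower in obese VAT in 7 of 16 rows (median log2 fold change -0.66), with summed levels of 21404 to 34739 CPM in lean and 15521 to 26416 CPM in obese mice. Macrophage markers were higher in 6 of 7 rows (median 1.27), with summed levels of 2176 to 2903 CPM against 4469 to 6889 CPM. Lipid-associated macrophage markers were higher in 6 of 7 rows (median of the 7 rows 3.62) and lower in 1, that of Lpl, the lipase that adipocytes express too (-0.59, SE 0.12, adjusted p = 0.0017). Their summed level went from 21149 to 28885 CPM in lean to 15919 to 19000 CPM in obese VAT. B cell markers were higher in 3 of 5 rows (median 1.48), with summed levels of 107 to 692 CPM against 653 to 1781 CPM. Of 6 rows of intestinal epithelium 1 was lower (Zg16, -4.18, SE 0.78, adjusted p = 0.00099), and the muscle row was not called. Exocrine pancreas markers were higher in 1 of 3 rows, with summed levels of 42.1 to 62.0 CPM in lean and 85.5 to 91.7 CPM in obese VAT. No defining marker of adipocytes or macrophages was at 0 in a whole group, and the part of all these cell types in the member values was not tested.

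**Figure D3:**
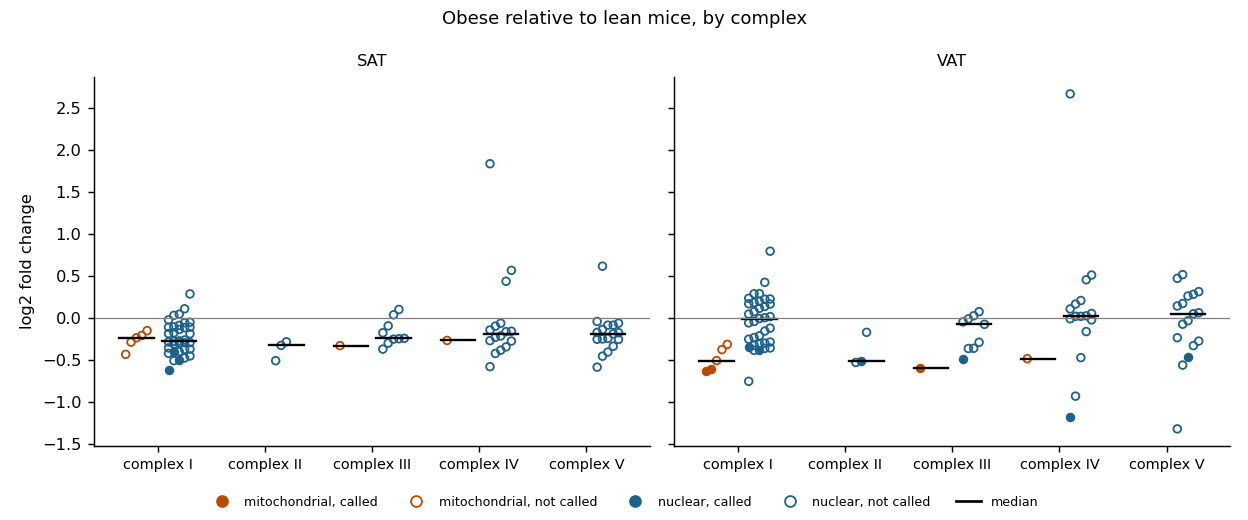
Log2 fold change of obese relative to lean mice (y axis) in SAT (left) and VAT (right) for the 7 mitochondrial rows with their own windows and the tested nuclear rows of each complex, with filled points for called rows and lines for medians. Nuclear medians lie between -0.32 and -0.19 in SAT and near 0 in VAT except for complex II at -0.51, and filled mitochondrial points are seen only in VAT.

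**Figure D4:**
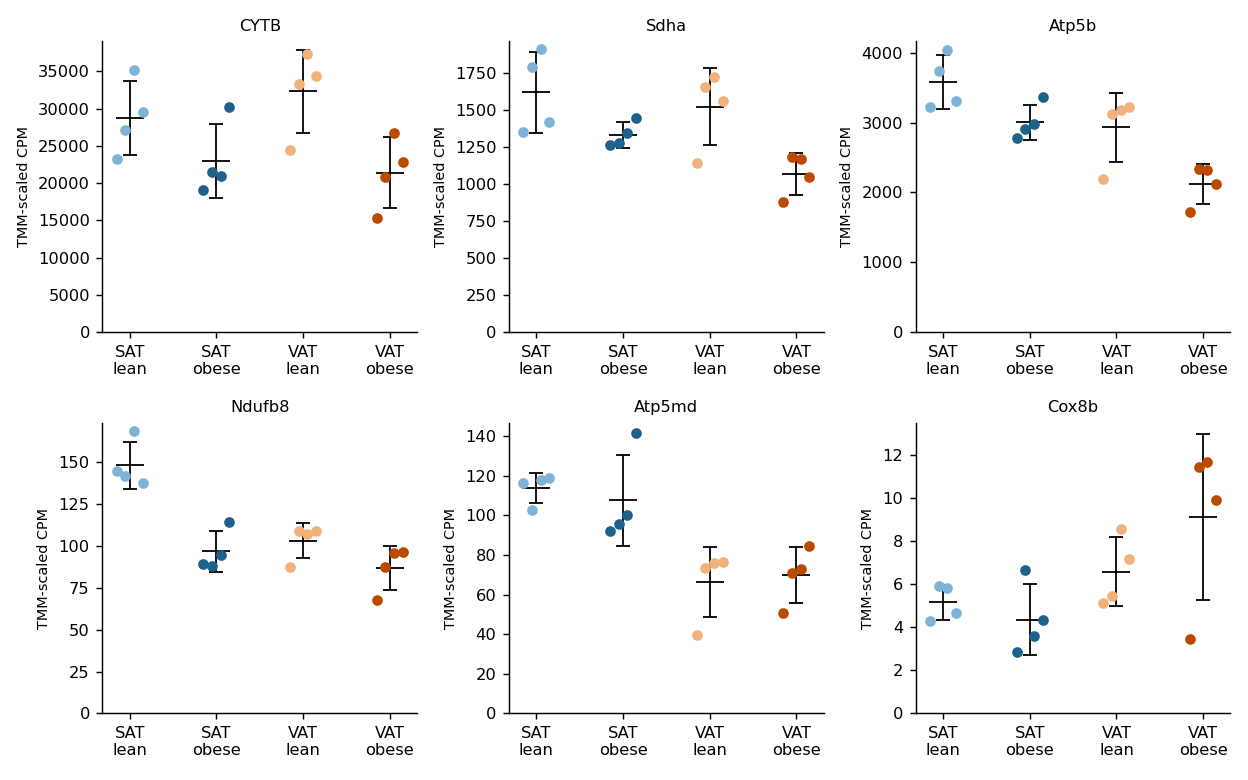
TMM-scaled CPM (y axes from 0) of 6 members in each library (points) with mean and SD (bars), n = 4 mice per group. CYTB, Sdha and Atp5b are lowest in obese VAT, Ndufb8 separates lean from obese SAT, Atp5md is lower in VAT than in SAT in lean mice, and Cox8b reaches 11.7 in obese VAT.

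Whether the response to diet differed between depots was tested directly, with the mouse as a block. No member was called by edgeR (2.17% of all rows were, 0.88% higher and 1.29% lower), 4 were lower and 10 higher at an unadjusted p below 0.05, beside 7.25% and 7.45% of all rows, and DESeq2 called 0, beside 3.48% of all rows. The difference (response in VAT minus response in SAT) had a median of -0.19 for the 7 mitochondrial rows with their own windows, all 7 below 0, and of 0.17 for nuclear rows, 59 of 85 above 0, beside 0.03 over all rows. The 25 members with 1 row and under 1000 bases had a median of 0.28, beside 0.32 for the 288 genes of that length. ND5 had the lowest unadjusted p of these mitochondrial rows, with a log2 difference of -0.41 (SE 0.15, adjusted p = 0.17). The calls seen in 1 depot alone are therefore not shown to be specific to it.

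The next comparison set VAT beside SAT of the same lean mice, with the mouse as a block. Of the 98 members 21 were lower in VAT and 0 higher, beside 6.84% lower and 8.0% higher among all rows (14.8% called). By complex, 9 of 35 nuclear rows were called in complex I and 7 of 16 in complex IV, with 1 of 3 in complex II, 2 of 17 in complex V and 0 of 9 in complex III. At an unadjusted p below 0.05 there were 39 lower and 1 higher in edgeR, beside 1723 and 1864 of the 13288 rows, and DESeq2 called 23, all lower, beside 14.9% of all rows. None of the 21 exceeded a log2 fold change of 1.5, beside 5.44% of all rows. VAT lay below SAT in all 4 lean mice for 42 members and above for 3, beside 17.8% and 16.8% of all rows.

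Of the 21 calls 19 were nuclear rows. Atp5md, a small subunit associated with dimers of ATP synthase (chromosome 19), stood at 116, 103, 118 and 119 TMM-scaled CPM in lean SAT and at 39.7, 73.2, 75.7 and 76.6 in lean VAT, with a log2 fold change of -0.78 (SE 0.14, adjusted p = 0.00043). Ndufs4, an accessory subunit of the matrix arm of complex I (chromosome 13), stood at 150, 154, 187 and 178 in SAT and at 87.8, 124, 116 and 127 in VAT, a log2 fold change of -0.56 (SE 0.12, adjusted p = 0.00165). In both, every VAT library lay below every SAT library. Atp5h (NM_027862), of the peripheral stalk of ATP synthase, stood at 85.1, 106, 115 and 95.1 in SAT against 38.4, 65.9, 67.3 and 74.6 in VAT, a log2 fold change of -0.71 (SE 0.13, adjusted p = 0.000328). Ndufb3 stood at 294, 278, 401 and 351 against 145, 227, 256 and 233, a log2 fold change of -0.63 (SE 0.12, adjusted p = 0.000626). Its groups did not overlap either. Ndufb1 had a log2 fold change of -0.73 (SE 0.15, adjusted p = 0.00165), and Ndufa4, a subunit of complex IV, of -0.54 (SE 0.12, adjusted p = 0.00295).

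The remaining called nuclear rows had log2 fold changes between -0.75 and -0.37 and were Ndufa3, Ndufa5, Ndufb4, Ndufb8, Ndufs5 and Ndufv3 of complex I, Sdhd of complex II, and Cox5b, Cox6b1, Cox6c, Cox7a2, Cox7b and Cox7c of complex IV. Of these, Ndufb8, Ndufs5, Ndufv3, Sdhd and Cox7a2 kept their call in all 16 alternative fits. Ndufa3, Ndufa5, Ndufb4, Cox5b, Cox6b1, Cox6c, Cox7b and Cox7c each lost it on leaving out at least 1 of the lean mice, with adjusted p of at most 0.24. Ndufa3, at an adjusted p of 0.0493, lost its call in 11 of the 16. The count of called members stayed between 16 and 21 whichever mouse was left out, beside 10.1 to 15.7% of all rows. VAT of lean mouse 1, the shallowest library, was the lowest of its group in Atp5md, Ndufs4, Atp5h, Ndufb3, Ndufb1 and Ndufa4. Without both mice numbered 1, a check chosen after the data were seen, 18 members were called, beside 12.8% of all rows.

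In lean mice the median of the 7 mitochondrial rows with their own windows was -0.01, with 3 above 0 and 4 below, against -0.29 over the 85 nuclear rows and 0.01 over all rows, and nuclear medians were -0.30 for complexes I and V, -0.09 for complex II, -0.08 for complex III and -0.40 for complex IV. ND1 was the 1 called row of these 7, at 18742, 17830, 23978 and 22850 in SAT and 11486, 16192, 17590 and 17445 in VAT, a log2 fold change of -0.42 (SE 0.11, adjusted p = 0.0126). Its VAT values were below all SAT values, and its call was lost without lean mouse 1 or lean mouse 3 (adjusted p = 0.076 in both). CYTB had a log2 fold change of 0.17 (adjusted p = 0.37) and ND5 of 0.00 (adjusted p = 0.99). The repeated row ND3 was also called, at -0.76 (SE 0.13, adjusted p = 0.000174).

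In obese mice 21 members were lower and 3 higher in VAT than in SAT, beside 13.5% lower and 15.9% higher among all rows (29.4% called). At an unadjusted p below 0.05 there were 30 lower and 5 higher, beside 18.5% and 21.4% of all rows. VAT lay below SAT in all 4 obese mice for 31 members and above for 5, beside 22.5% and 22.9% of all rows. Beyond a log2 fold change of 1.5 there were 2 members, beside 9.59% of all rows: ND4L, a repeated row whose call rests on 1 SAT library (15.9 CPM in obese mouse 3, adjusted p = 0.25 without that mouse), and Cox6a2, with 3 to 37 counts per library of obese mice.

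Mitochondrial rows with their own windows were lower in VAT for all 7 in obese mice, with a median of -0.26, and 3 were called. ND1 stood at 14309, 17213, 15923 and 23526 in obese SAT and at 9549, 11641, 14252 and 12961 in obese VAT, with a log2 fold change of -0.54 (SE 0.11, adjusted p = 0.000852). Only the VAT of mouse 3, at 14252, stayed just below the lowest SAT value, so the groups did not overlap. ND5 had a log2 fold change of -0.41 (SE 0.11, adjusted p = 0.00544) and ND2 of -0.39 (SE 0.11, adjusted p = 0.00906). Both lost their calls without obese mouse 4, with adjusted p of 0.058 and 0.077.

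The nuclear calls in obese mice were 15 lower and 3 higher in VAT. Atp5b stood at 2775, 2910, 2978 and 3361 in obese SAT and at 1720, 2333, 2326 and 2122 in obese VAT, with no overlap and a log2 fold change of -0.51 (SE 0.10, adjusted p = 0.000771). Ndufv3 (matrix arm of complex I) stood at 83.3, 104, 77.0 and 80.1 against 45.2, 52.6, 60.9 and 48.7, likewise without overlap, a log2 fold change of -0.72 (SE 0.13, adjusted p = 0.000147). Atp5md stood at 92.2, 95.8, 100 and 142 against 50.6, 71.0, 72.9 and 84.5, a log2 fold change of -0.62 (SE 0.14, adjusted p = 0.00169). Ndufs4 at -0.53 (adjusted p = 0.00115), Ndufs5 at -0.51 and Ndufb3 at -0.44 were called in both diets, as were Ndufa4 at -0.40 and, in the same direction, ND1, ND3, Ndufv3 and Atp5md. Atp5a1 (the alpha subunit, -0.27), Atp5o (-0.33), Atp5j (-0.87), Sdha (-0.32), Uqcrfs1 (the Rieske iron-sulfur protein, -0.35), Cox4i2 (-0.77), Ndufa4l2 (-0.83), Cox6a2 (-1.84) and the repeated row COX3 (-0.89) made up the rest of the lower calls. Cox4i2, Ndufa4l2 and Cox6a2 each lost their call without obese mouse 1, 2 or 3, with adjusted p up to 0.15, 0.18 and 0.24. COX3 lost its call in DESeq2 (adjusted p = 0.13) and without obese mouse 4, where its log2 fold change was -0.44 (adjusted p = 0.34). Atp5a1, Atp5o, Atp5j, Sdha, Uqcrfs1, Ndufb3 and Ndufa4 also lost theirs without obese mouse 4, with adjusted p of at most 0.099. Atp5j was called on 1 of its 11 rows, with 741 counts over all libraries. Its call was also lost with counts summed per gene symbol and without obese mouse 2. The count of called members was 14 without obese mouse 4, beside 19.6% of all rows. It was 17 to 30 without any other single mouse, beside 23.7 to 32.7% of all rows.

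Cox8b, an isoform of complex IV subunit 8 found in muscle and thermogenic fat, stood at 2.85, 6.67, 3.59 and 4.32 CPM in obese SAT and at 3.45, 11.5, 11.7 and 9.94 in obese VAT. It was higher in VAT in every obese mouse, with a log2 fold change of 1.08 (SE 0.24, adjusted p = 0.00143). Atp5g2, 1 of 3 genes for the same c-ring subunit of ATP synthase, stood at 56.7, 64.7, 52.5 and 54.5 in SAT and at 76.3, 73.8, 87.4 and 77.9 in VAT, with no overlap and a log2 fold change of 0.47 (SE 0.12, adjusted p = 0.00628). The call of Atp5g2 was lost without obese mouse 3 (adjusted p = 0.061) and with no filter on low counts (adjusted p = 0.11). Ndufaf8, an assembly factor of complex I, was also higher, at 0.89 (SE 0.29, adjusted p = 0.0246). Its VAT level was 9.58 CPM in obese mouse 1, and its call was lost without obese mouse 1 (adjusted p = 0.17), without obese mouse 3 (adjusted p = 0.12) and with no filter on low counts (adjusted p = 0.082).

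Adipocyte markers moved with depot too: 4 of 16 rows were lower in VAT in lean mice (median -0.24) and 12 of 16 in obese mice (median -0.72), while macrophage markers were higher in 4 of 7 and 7 of 7 rows (medians 0.57 and 0.96). B cell markers were higher in VAT in 4 of 5 rows in lean and 5 of 5 in obese mice, and mesothelial markers in 6 of 6 rows in both. Lipid-associated macrophage markers were higher in VAT in 0 of 7 rows in lean and 5 of 7 in obese mice and lower in 1 in both, and those of intestinal epithelium were higher in 2 and 1 of 6. The skeletal muscle row was lower in lean VAT (-1.10, SE 0.36, adjusted p = 0.042). Of 3 rows of exocrine pancreas 2 were higher and 1 lower in lean mice, and 1 was higher and 1 lower in obese mice. The tested rows of Wt1, Upk1b and Msln, which mark mesothelium, were at 0 in every SAT library. Their part in the member values was not tested.

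**Figure D5:**
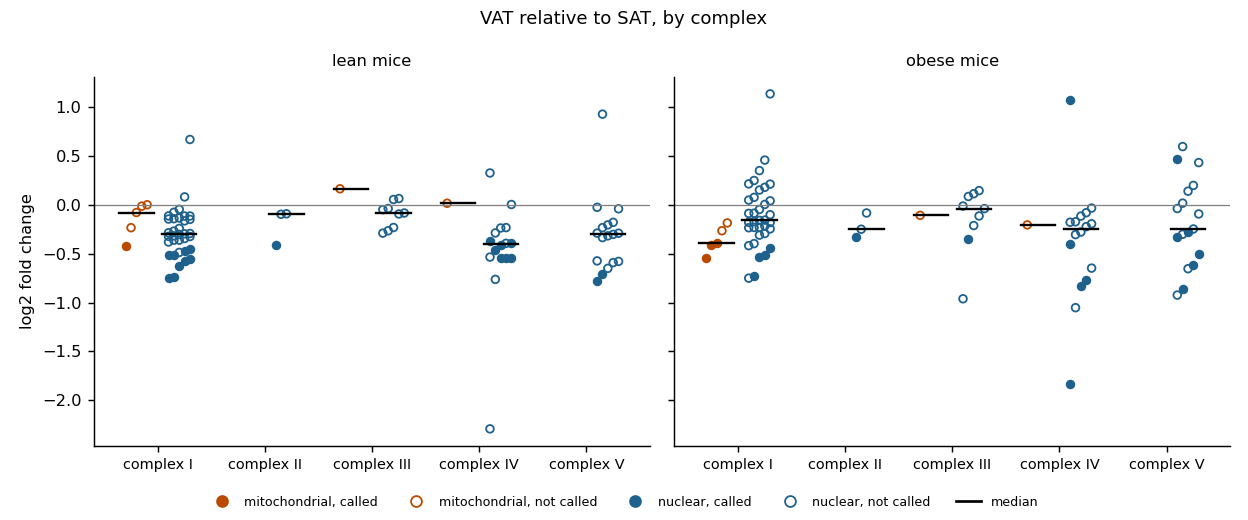
Log2 fold change of VAT relative to SAT of the same mice (y axis) in lean (left) and obese (right) mice for the 7 mitochondrial rows with their own windows and the tested nuclear rows of each complex, with filled points for called rows and lines for medians. In lean mice filled points are mostly nuclear rows of complexes I and IV, and in obese mice Cox8b and Atp5g2 are the filled points above 0.

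Complex II, the 1 complex with no mitochondrial subunit, had 3 tested rows. Sdhd, a membrane anchor, stood at 267, 274, 301 and 298 in lean SAT, 211, 233, 214 and 252 in obese SAT, 176, 210, 244 and 230 in lean VAT, and 163, 193, 207 and 203 in obese VAT. Its lower level in lean VAT than lean SAT was called (-0.41, SE 0.10, adjusted p = 0.0074), and its diet difference was not (-0.32 in SAT, adjusted p = 0.072, and -0.17 in VAT, adjusted p = 0.42). Sdhb, the iron-sulfur subunit, had a row of 12.8 to 35.9 CPM with log2 fold changes of -0.51 in SAT (adjusted p = 0.12) and -0.53 in VAT (adjusted p = 0.13) between diets.

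Among the common isoforms of complex IV, Cox6a1, Cox8a, Cox7a2 and Cox4i1 were not called between diets. Cox6a1 had a log2 fold change of -0.14 in SAT (SE 0.13) and 0.02 in VAT (SE 0.14), Cox8a of -0.09 (SE 0.13) and 0.06 (SE 0.13), and Cox7a2 of -0.21 (SE 0.16) and 0.02 (SE 0.16). Cox4i1, on a row at 26.9 to 89.3 CPM, had -0.58 (SE 0.26, adjusted p = 0.17) and -0.47 (SE 0.27, adjusted p = 0.31). Cox6a2, the heart and muscle form, was at 1.07, 0, 0.0953 and 1.49 CPM in lean SAT, 2.85, 3.60, 1.31 and 1.31 in obese SAT, 0, 0.179, 0 and 0 in lean VAT, and 1.15, 0.330, 0.287 and 0.857 in obese VAT. It missed the threshold between diets in SAT (1.84, SE 0.66, adjusted p = 0.076) and in VAT (adjusted p = 0.12), at depths of 0 to 37 counts. Cox7a1, another muscle form, had 37 counts over all libraries and was not tested.

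Transcript length was set beside these differences. For 45 of the 46 tested protein-coding members with 1 row and a curated accession (Ndufb4b, with a predicted one, was left out), the length of the canonical GENCODE transcript had a median of 900 bases. Across these genes, which are not independent replicates and share their libraries, Spearman's rho between length and log2 fold change was -0.53 for diet in VAT and -0.083 for diet in SAT, beside -0.155 and 0.157 over all 3455 such genes. For VAT against SAT it was 0.32 in lean and -0.245 in obese mice, beside 0.129 and -0.113, and for the difference of the diet response between depots it was -0.576, beside -0.315. Of the 25 members under 1000 bases, 25 were lower in lean VAT than in lean SAT (median -0.32, 8 called), beside 194 of 288 genes of that length (median -0.15). The same 25 had a median diet difference of 0.12 in VAT, beside 0.24 for the 288 genes. For the 10 members of 1000 to 2000 bases it was -0.19, with 10 of 10 below 0, beside 0.15 for 804 genes. For the 10 members from 2000 bases upwards it was -0.25, with 7 of 10 below 0, beside 0.07 for 2363 genes. The VAT calls Sdha, Uqcrc2, Atp5b and Ndufv1 were all longer than 1000 bases, and the part of length in them was not tested.

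The promoters of member genes were searched for motifs of factors known to control respiratory genes, from 250 bases before to 50 bases after the start (RefSeq, GRCm38.p6, both strands, 78 member genes matched by symbol, each motif counted on its own). The NRF1 motif (GCGC, then A, any base and GCGC again) occurred in 19 of 78 (24.4%), beside 5.19% of 27025 promoters, the GABPA motif CCGGAAG in 24.4% beside 9.93%, the YY1 motif AAGATGGCG in 10.3% beside 1.64%, and the ESRRA half-site AAGGTCA in 10.3% beside 5.38%. A match is a description and not a binding site. Sdha, the called VAT member with the lowest adjusted p, had 3 NRF1 matches, shown in capitals in its promoter at chr13:74350191-74350490, minus strand.
Sdha promoter: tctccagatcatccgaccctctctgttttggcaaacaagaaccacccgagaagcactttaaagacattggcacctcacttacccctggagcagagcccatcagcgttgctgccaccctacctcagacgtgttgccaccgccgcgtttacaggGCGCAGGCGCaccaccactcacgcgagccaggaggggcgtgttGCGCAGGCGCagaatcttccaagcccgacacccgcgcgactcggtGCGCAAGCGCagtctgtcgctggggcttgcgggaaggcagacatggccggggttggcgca
Of the other members called between diets, Atp5b, Cox7a2l, Ndufb10, Ndufb8 and Ndufv1 had none of the 4 motifs in this window, and Ndufb9 and Uqcrc2 were not analysed here.

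Other genes of the pathway were counted from lists of names. Of genes that express mitochondrial DNA (12 rows of 11 genes tested, such as Tefm, Slirp and Polg2), 0 were called between diets in SAT by edgeR (2 lower and 1 higher at an unadjusted p below 0.05), 1 was higher in VAT (Tefm, 1.80, SE 0.54, adjusted p = 0.033), 1 was lower in VAT than SAT in lean mice (Slirp, -0.44, adjusted p = 0.047), and 1 was higher in obese mice (Polg2, 1.45, adjusted p = 0.0042). The called Tefm row averaged 0.469 CPM in lean and 1.70 in obese VAT, and the second tested row of Tefm had -0.70 (SE 0.48, adjusted p = 0.41). Polg2 was low too, at an average of 0.977 CPM in obese SAT and 2.68 in obese VAT. Only 2 rows of the transcriptional regulators were tested, of which Gabpb1, a partner of GABPA, was higher in obese SAT (1.38, SE 0.31, adjusted p = 0.006). All rows of that list summed to at most 4.77 CPM per library in lean SAT and 6.46 CPM in obese SAT. Of 42 rows of assembly factors outside the member list, 1 was lower in obese SAT (Fmc1, -0.72, adjusted p = 0.012), 2 were lower and 1 higher in obese VAT, 3 were lower in VAT than SAT in lean mice, and 6 were lower and 3 higher in obese mice. Among all rows, 4.85% were lower and 6.2% higher in obese SAT, and 4.09% and 6.82% in obese VAT. For VAT against SAT, 6.84% of all rows were lower and 8.0% higher in lean mice, and 13.5% and 15.9% in obese mice.

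Mobile carriers between the complexes and carriers of ADP and phosphate behaved as follows. Cytochrome c (Cycs) stood on average at 252 CPM in lean SAT, 244 in obese SAT, 189 in lean VAT and 151 in obese VAT. It was lower in VAT than in SAT in lean mice (-0.42, SE 0.11, adjusted p = 0.011) and in obese mice (-0.68, SE 0.11, adjusted p = 6.7e-05), and with it 1 and 3 of the 13 rows of cytochrome c and coenzyme Q synthesis were lower. Of 15 rows of carriers and the outer membrane, Slc25a4, which exchanges ADP for ATP, was the 1 lower in obese SAT (-0.33, SE 0.10, adjusted p = 0.036), Hspa9, the import motor's chaperone, was the 1 lower in obese VAT (-0.40, SE 0.12, adjusted p = 0.026), and 2 and 5 rows were lower in VAT than SAT in lean and obese mice. Of all rows, 4.85% and 4.09% were lower in obese SAT and obese VAT. In VAT against SAT 6.84% and 13.5% of all rows were lower in lean and obese mice.

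Genes that bypass or uncouple the chain held larger log2 fold changes. Ucp1, the uncoupling protein of thermogenic fat, averaged 0.18 CPM in lean SAT, 2.57 in obese SAT, 0.376 in lean VAT and 10.3 in obese VAT. It was higher in obese mice in SAT (3.62, SE 0.62, adjusted p = 0.00049) and in VAT (4.51, SE 0.52, adjusted p = 4.6e-06). Of the 6 rows of brown and beige adipocyte markers, Ucp1 included, 2 were higher and 2 lower in obese SAT, and 2 were higher and 1 lower in obese VAT. Dio2 was lower in obese SAT (-3.22) and obese VAT (-2.68), and Cidea was lower in obese SAT (-1.58). Cpt1b was higher in obese SAT (1.65, SE 0.33, adjusted p = 0.0019), and Otop1 was higher in obese VAT (1.75, SE 0.28, adjusted p = 0.0002). Ucp3 averaged 165 CPM in lean and 87.9 in obese VAT and was lower (-0.90, SE 0.17, adjusted p = 0.0011). Of the 10 rows of the list of uncoupling and bypass genes, 2 were higher and 2 lower between diets in each depot. Among all rows, 6.2% were higher and 4.85% lower in obese SAT, and 6.82% and 4.09% in obese VAT.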

How the data were processed

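Whole-number gene counts and CPM values were used as deposited by the authors, 1 row per RefSeq transcript; the counts were tested, and the deposited CPM were checked to be counts scaled to the column total (largest difference 4.9e-10). Per the labels and methods, the authors used FastQC 0.11.9, Trim Galore 0.6.6, HISAT2 2.2.0 on GRCm39, SAMtools 1.11, bedtools 2.29.2, HTSeq 0.13.5 and edgeR 3.34.0, and discarded reads under 75 bases. Strand setting and treatment of reads with several positions are not given in the sources used here. Accessions were matched to symbols (82.0% of all rows, 88.9% of tested rows). Rows with CPM above 1 in at least 3 of 16 libraries were fitted in edgeR 4.0.16 (R 4.3.3, TMM, quasi-likelihood, all 16 libraries), with 4 group means for diet and the mouse as a block otherwise. SE is the log2 fold change over the square root of F. Alternatives used DESeq2 1.42.0. Scripts were tested on simulated data. Repeats were found with BLAST 2.17.0. The members, gene lists and markers were chosen with earlier results of these data known. Named by rule are the 13 mitochondrial rows, isoform pairs, complex II, catalytic subunits, and, per comparison and direction, up to 5 called nuclear rows and up to 5 called rows of each list with the smallest adjusted p; other members were named after their values were seen. SAT and VAT of 1 mouse are paired by the study's design (correlation of deviations -0.019 to 0.233, median 0.107, 8 pairs). The labels number lean and obese mice alike, and the correlation of same-numbered mice was above 0.1 in 4 of 4 pairs in VAT and in 0 of 4 in SAT, so the blocked fit is given beside the VAT result. Mice are the replicates, and p-values measure their spread.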

Additional observations from a re-analysis of the deposited data

Results flagged for a closer look

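In each group of 4 libraries of the named members, the highest or lowest value was checked for a gap to its neighbour whose share of the group's range is above Dixon's critical value. Of 208 groups 19 (9.13%) had such a value, where chance gives about 1 in 20. Lean VAT held 8 of the 19, and 7 of those were the lowest value in the library of lean mouse 1, which is also the shallowest. They were Ndufb8 at 87.75 TMM-scaled CPM (others 107.2 to 109.1), Uqcrc2 at 372.8 (others 527 to 537), Cox6b1 at 145.4 (others 213.5 to 214.8), Cox7a2 at 84.55 (others 150.1 to 157), Cox7b at 113.4 (others 161.6 to 170.9), Atp5b at 2190 (others 3127 to 3228) and Atp5md at 39.71 (others 73.23 to 76.56).

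In the other shallow library, VAT of obese mouse 1, COX3 was low at 5.749 (others 12.63 to 13.8), Ndufa3 was low at 32.58 (others 66.98 to 72.89) and ATP8 was high at 1.15 (others 0.3426 to 0.4791). The repeated mitochondrial rows gave further high values, with ND4L at 15.87 in SAT of obese mouse 3 (others 0.7692 to 2.392) and at 2.974 in SAT of lean mouse 1 (others 0.6381 to 0.9531), and ATP8 at 3.145 in SAT of lean mouse 3 (others 0.2814 to 0.6609).

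In SAT, Ndufa3 was low at 64.45 in lean mouse 2 (others 72.62 to 74.23), as were Cox6b1 at 227.1 (others 265.8 to 271.5) and Atp5md at 102.7 (others 116.2 to 118.7) in the same library. Cox5b was high at 125.9 in SAT of lean mouse 4 (others 105.5 to 108.8), and Atp5md was high at 141.7 in SAT of obese mouse 4 (others 92.23 to 100.1). Cox6a2 stood at 0.1795 in VAT of lean mouse 2, with the other 3 libraries at 0. The causes were not tested.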

How the results depend on the processing

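Of the checks on all called members and, between diets, the 7 mitochondrial rows with their own windows, 979 kept direction and side of the threshold, 133 kept direction but lost the call, 16 gained one and 0 reversed. Members called between diets in SAT numbered 3 as reported and 5 with no filter on low counts (2 higher, 2 mitochondrial, and 1 of the 3 reported rows shared). They numbered 8 with DESeq2, 5 with the newer edgeR setting (legacy=FALSE), 7 with counts summed per gene symbol, 11 with only the 8 SAT libraries and 8 without both mice numbered 1 (chosen after the data were seen). Among all rows, 11.0% were called as reported and 3.25%, 12.4%, 13.5%, 11.6%, 14.4% and 10.3% in the other fits, in that order. In VAT the members called numbered 10 as reported and 11 to 15 under the other settings, sharing 8 of the 10 with no filter and 9 with DESeq2. Of all rows, 10.9% were called as reported, 3.37% with no filter and 9.99 to 14.0% under the other settings. Leaving out 1 mouse at a time gave 2 to 12 in SAT, 0 to 20 in VAT, 0 to 1 for the difference, 16 to 21 for VAT against SAT in lean mice and 14 to 30 in obese mice. The share of all rows called then ran from 7.21 to 11.5% in SAT, 6.4 to 12.7% in VAT and 1.03 to 3.12% for the difference. For VAT against SAT it ran from 10.1 to 15.7% in lean mice and from 19.6 to 32.7% in obese mice. The difference between depots had 0 called as reported, 1 with library sizes that leave out the mitochondrial rows, 3 with no filter, 1 with legacy=FALSE and 1 without both mice numbered 1. All of these calls were mitochondrial rows and lower, beside 2.51%, 0.806%, 2.66% and 2.9% of all rows called in those fits. With 1-row genes only, the nuclear share was 1.40, 1.02, 1.29 and 1.06% in lean SAT, obese SAT, lean VAT and obese VAT, and the ratio in lean VAT was 13.4. The cause of these shifts was not tested. How far the 2 shallow VAT libraries limit rows with few counts was not tested.

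Same-numbered lean and obese mice had correlations of their deviations between -0.122 and 0.0647 among the 4 SAT pairs, and between 0.106 and 0.226 among the 4 VAT pairs. The value of 0.226 belonged to the mice numbered 1, whose VAT libraries were the shallow ones. In VAT lean mouse 2 correlated better with obese mouse 4 (0.127) than with obese mouse 2 (0.107). With a replicate block for that number, 11 members were called between diets in SAT and 15 in VAT, each beside 12.2% of all rows. Without the mouse block, 16 were called for VAT against SAT in lean mice, 18 in obese mice and 0 for the difference.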
